A study of Mus musculus with 9 samples.

Results

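The genes described here are 40 genes of the cell division cycle, listed by symbol out of the 24346 gene symbols measured. They comprise 17 replication genes (Mcm2 to Rrm2), which license and copy DNA in late G1 and S phase, and 23 mitosis genes (Mki67 to Stmn1), which act in G2 and M phase. Of these, 17 and 22 were tested, having an FPKM of 1 or more in 3 or more samples. Cenpf, a kinetochore-associated protein, did not, with values between 0.471 and 0.673 in the 9 samples. FPKM is a count of fragments divided by transcript length and by library size.

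RNA was sequenced from macrophages sorted from the lungs of C57BL/6 mice at postnatal week 10, with 3 samples in each of 3 populations. Ctrl-AM were alveolar macrophages (AMs) of mice given PBS, the vehicle. Tumor-AM were AMs of mice whose left lung had received LLC cells, a Lewis lung carcinoma line of the mouse, which stably carried the fluorescent protein tdTomato. Tumor-macrophage were the Siglec-F-negative macrophages of such tumor-bearing lungs, which the study calls tumor-associated macrophages. All 3 populations were sorted as CD45-positive, autofluorescent cells, and the AMs as positive for Siglec-F and F4/80. The study used female adult mice and gave 3 mice for each population. The labels do not tie samples to animals, so p-values measure the spread between these samples, and which Tumor-AM and Tumor-macrophage samples shared a mouse is not known. The transplanted tumor is 1 line.

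The cell cycle is driven by cyclins and their kinases. D-type cyclins with Cdk4 and Cdk6 phosphorylate the retinoblastoma protein and so release E2F factors, which switch on the replication genes. Later the MuvB complex with B-Myb and FoxM1 switches on the mitosis genes. In resting cells both sets are held down by the DREAM complex. Tissue macrophages such as AMs are long-lived cells that can renew themselves by division in the lung. Macrophages derived from monocytes are recruited from the bone marrow, where their precursors divide.

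The populations carried the markers of their labels. That was partly fixed in advance, since Siglec-F was used for sorting. The study also showed several of these markers for the same populations. A list of 7 AM markers (Siglecf, Marco, Pparg, Car4, Chil3, Fabp4 and Ear1) summed to between 22648 and 39470 FPKM in the 6 AM samples and to between 182 and 490 in Tumor-macrophage. A list of 7 tumor macrophage markers summed to between 99.2 and 196 in Ctrl-AM and to between 348 and 633 in Tumor-AM. In Tumor-macrophage the sum was between 23216 and 35750. Of the 7, 5 were called higher in Tumor-AM against Ctrl-AM (limma), beside 7.11% of all genes. Read totals were not analysed here. Judged from the smallest steps in low values, 1 FPKM on a transcript of 1 kb stood for an estimated 10.4 to 13.2 reads. At that depth the least abundant tested member, Ccne2, rested on about 28.1 to 50 reads per sample.

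Promoters are shown for the 3 replication and the 3 mitosis genes that differed most between Tumor-macrophage and Ctrl-AM, because the members are classic targets of promoter elements. Sequences run from 250 bases before to 50 bases after the start of transcription in RefSeq (GRCm38.p6, the assembly also called mm10). They are written 5′ to 3′ on the strand of the gene. Capitals mark E2F words (TTTCCCGC or TTTGGCGC), words of the cell cycle homology region or CHR (TTTGAA or TTCGAA), the element bound by MuvB, and CCAAT boxes (CCAAT), on either strand.
Mcm6, chr1:128359656-128359955, minus strand: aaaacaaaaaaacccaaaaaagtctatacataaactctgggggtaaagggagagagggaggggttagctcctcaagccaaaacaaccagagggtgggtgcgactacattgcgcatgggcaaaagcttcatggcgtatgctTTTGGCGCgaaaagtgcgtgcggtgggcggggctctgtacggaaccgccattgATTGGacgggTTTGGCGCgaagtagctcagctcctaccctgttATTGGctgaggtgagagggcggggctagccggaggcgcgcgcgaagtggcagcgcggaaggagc
Mcm5, chr8:75109259-75109558, plus strand: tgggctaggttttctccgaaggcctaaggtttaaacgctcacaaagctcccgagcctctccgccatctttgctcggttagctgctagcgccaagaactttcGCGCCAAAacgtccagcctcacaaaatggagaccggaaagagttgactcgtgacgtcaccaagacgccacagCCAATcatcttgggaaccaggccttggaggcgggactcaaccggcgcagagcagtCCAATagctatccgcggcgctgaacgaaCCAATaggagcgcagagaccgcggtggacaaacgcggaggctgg
Tk1, chr11:117825965-117826264, minus strand: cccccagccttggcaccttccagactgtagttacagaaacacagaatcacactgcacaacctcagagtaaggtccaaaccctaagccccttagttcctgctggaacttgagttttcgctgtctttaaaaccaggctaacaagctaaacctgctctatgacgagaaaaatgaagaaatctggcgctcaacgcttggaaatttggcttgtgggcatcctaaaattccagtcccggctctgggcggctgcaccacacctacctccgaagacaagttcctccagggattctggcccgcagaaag
Top2a, chr11:99024140-99024439, minus strand: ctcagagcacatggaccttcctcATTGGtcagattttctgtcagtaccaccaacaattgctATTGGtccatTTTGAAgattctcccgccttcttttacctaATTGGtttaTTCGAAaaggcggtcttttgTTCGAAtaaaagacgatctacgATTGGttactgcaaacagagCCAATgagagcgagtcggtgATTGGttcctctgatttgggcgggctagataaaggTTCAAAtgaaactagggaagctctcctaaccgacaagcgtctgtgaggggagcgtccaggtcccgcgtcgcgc
Ube2c, chr2:164769679-164769978, plus strand: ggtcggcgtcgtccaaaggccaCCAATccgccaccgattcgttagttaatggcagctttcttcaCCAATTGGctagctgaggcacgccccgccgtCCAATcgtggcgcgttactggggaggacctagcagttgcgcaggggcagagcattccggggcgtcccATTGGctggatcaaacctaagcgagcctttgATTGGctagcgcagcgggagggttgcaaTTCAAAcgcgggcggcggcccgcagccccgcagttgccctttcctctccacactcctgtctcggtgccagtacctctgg
Birc5, chr11:117848987-117849286, plus strand: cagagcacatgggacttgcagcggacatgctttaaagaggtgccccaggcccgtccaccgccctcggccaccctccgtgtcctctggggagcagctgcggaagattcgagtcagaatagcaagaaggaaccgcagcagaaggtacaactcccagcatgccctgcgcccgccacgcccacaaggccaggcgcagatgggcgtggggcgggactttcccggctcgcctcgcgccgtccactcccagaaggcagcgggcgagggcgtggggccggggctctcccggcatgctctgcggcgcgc

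In Mcm6 the E2F word occurred 110 and 47 bases before the start, and in Mcm5 it occurred 149 bases before it on the opposite strand. Top2a held CHR words 179, 140, 120 and 23 bases before its start. Ube2c held 1 CHR word, 29 bases before the start, and CCAAT boxes at 6 positions, 2 of which overlapped on opposite strands. The windows of Tk1 and Birc5 held none of these words. Of the 40 members, 32 had an entry in the promoter table. An E2F word was found in 6 of 14 replication genes (42.9%), in 0 of 18 mitosis genes and in 1.56% of 32851 promoters of the same length. A CHR word was found in 2 of 14 replication genes (14.3%), in 14 of 18 mitosis genes (77.8%) and in 19.2% of all promoters. CCAAT boxes were held by 57.1%, 88.9% and 37.4%, respectively. A match is a description of letters and not a measured binding site.

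**Figure D1:**
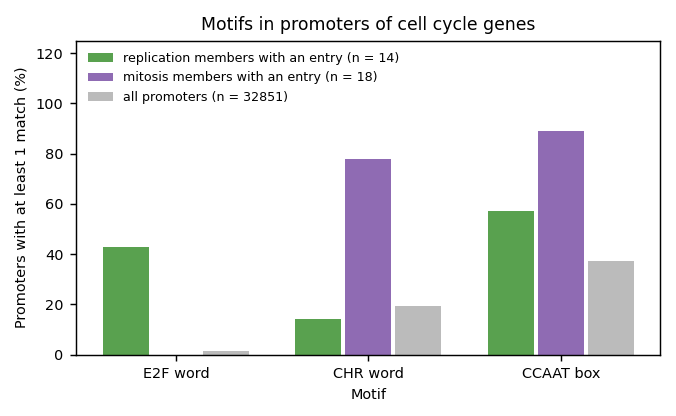
Share of promoters (percent, y axis) with at least 1 match to each motif (x axis), for replication genes (green, n = 14), mitosis genes (purple, n = 18) and all promoters of 300 bases (grey, n = 32851). The E2F word was found in 42.9% of replication genes and in none of the mitosis genes, and the CHR word in 77.8% of mitosis genes and 14.3% of replication genes.

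Genes with and without these words were compared by counts. Against Ctrl-AM, 4 of the 6 replication genes with an E2F word and 4 of the 8 without one were higher in Tumor-macrophage, with median log2 changes of 0.75 and 0.49. Of the mitosis genes tested, 6 of 13 with a CHR word and 2 of 4 without one were higher, with medians of 0.49 and 0.59. Of all genes tested, 27.7% were higher in the same comparison. These counts are descriptions and no difference between them was tested.

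All 3 populations contained RNA of all 40 genes. Among replication genes the level per length was highest for Pcna, the sliding clamp of DNA polymerases, with mean FPKM of 137, 142 and 137 in Ctrl-AM, Tumor-AM and Tumor-macrophage. The lowest were Ccne2 (cyclin E2), with means of 0.896, 1.26 and 1.12, and Cdc6, which loads the helicase, with 1.30, 1.57 and 1.88. Among mitosis genes Stmn1 (stathmin, which destabilizes microtubules) was highest, with means of 130, 124 and 157. Cenpe, a kinetochore motor, and Bub1, a checkpoint kinase, had means between 0.797 and 2.01 in every group. In bulk samples, fewer dividing cells and less RNA per dividing cell cannot be told apart.

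**Figure D2:**
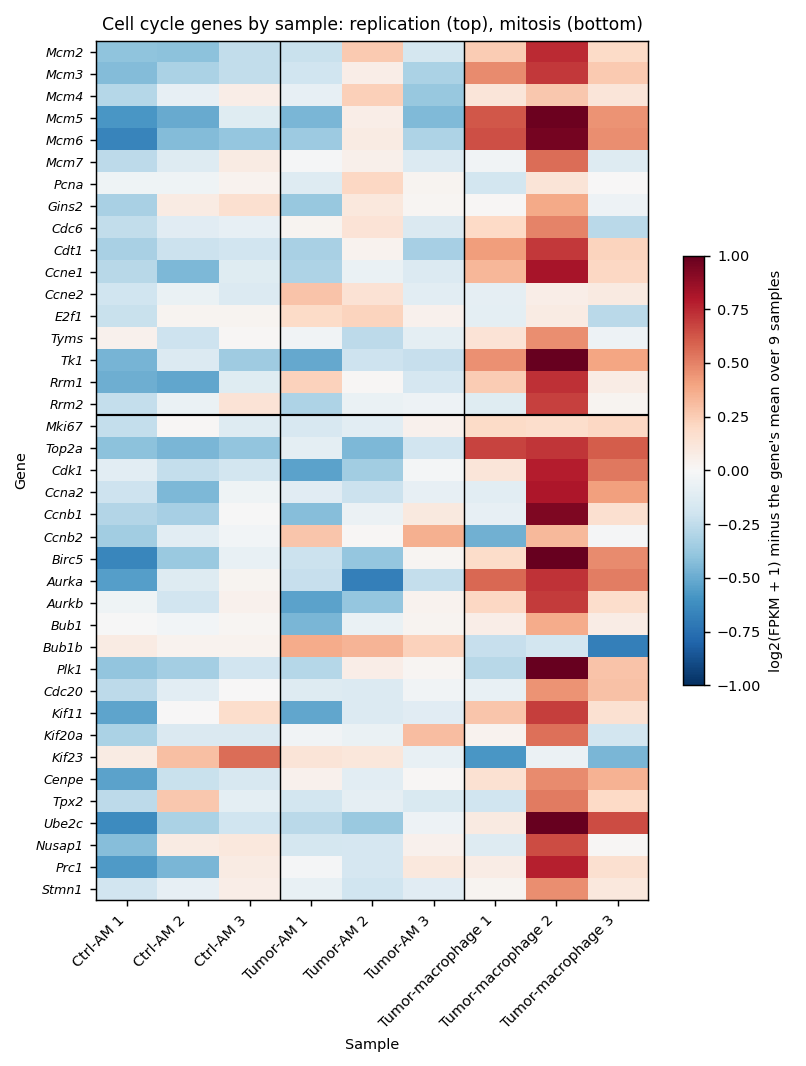
Level of each tested member (y axis, replication genes above the line and mitosis genes below it) in each of the 9 samples (x axis), as log2(FPKM + 1) minus the mean of that gene over the 9 samples, from blue (lower) to red (higher), with colours saturated at 1. The Tumor-macrophage columns are red for most genes, and Tumor-macrophage 2 is the most intense, while Bub1b and Kif23 are blue there.

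Values were compared as log2(FPKM + 1) with limma, and a gene was called where its p, adjusted over all 10686 genes tested, was under 0.05. Tumor-macrophage 2 stood above the rest of its group in nearly all members, and the counts without it are given after the genes. The 3 comparisons share samples, since each population enters 2 of them, and the values below are given side by side without a test of their likeness.

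The first question was whether AMs in tumor-bearing lungs differed from control AMs in these genes. None of the 17 replication genes and none of the 22 mitosis genes was called by limma, where 10.3% of all genes were called, 7.11% higher and 3.18% lower. The median log2 change was 0.11 for replication genes and 0.06 for mitosis genes, beside 0.01 for all genes. At an unadjusted p under 0.05 there was 1 replication gene, Rrm1, and 0 mitosis genes. Rrm1, the large subunit of ribonucleotide reductase, had FPKM of 12.5, 12.2 and 16.4 (Ctrl-AM) and 21.3, 18.2 and 15.9 (Tumor-AM), a log2 change of 0.41 ± 0.18 (SE, adjusted p = 0.191) with overlapping groups.

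The intervals show how large a difference these samples leave possible. For Mki67, the proliferation antigen Ki-67, the 95% interval of the log2 change ran from -0.22 to 0.30. FPKM were 1.96, 2.5 and 2.19 (Ctrl-AM) and 2.11, 2.23 and 2.59 (Tumor-AM). The interval was -0.06 to 0.42 for Top2a (topoisomerase II alpha), -0.51 to 0.26 for Cdk1 (the mitotic kinase) and -0.17 to 0.27 for Pcna. The widest was that of Plk1 (polo-like kinase 1), from -0.38 to 0.87. No member was called in this comparison in any of the 18 alternative settings.

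**Figure D3:**
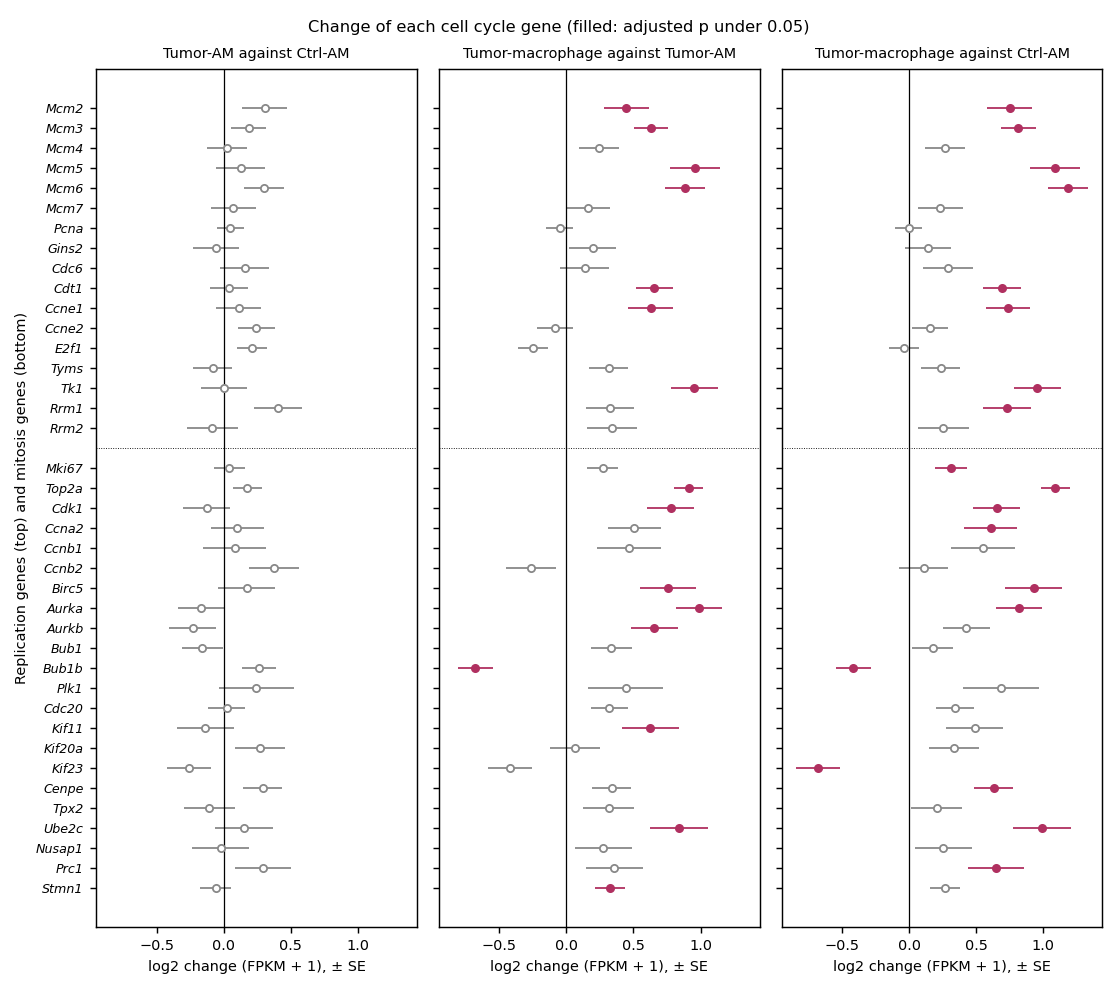
Log2 change of each tested member (x axis, log2(FPKM + 1) with bars of 1 SE) in the 3 comparisons, replication genes above the dotted line and mitosis genes below it. Filled red points have an adjusted p under 0.05, and there are none in Tumor-AM against Ctrl-AM, while in the other panels most filled points lie right of 0 and Bub1b and Kif23 lie left.

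Members were called between Tumor-macrophage and both AM populations, in smaller shares than all genes in either direction, but mostly as higher. Against Tumor-AM, 7 of 17 replication genes (41.2%) were higher and 0 were lower, beside 24.2% of all genes higher and 24.4% lower (48.6% in either direction). Against Ctrl-AM, 8 of 17 (47.1%) were higher and 0 were lower, beside 27.7% higher and 27.1% lower of all genes (54.8% in either direction). Median log2 changes were 0.33 and 0.29, beside 0.00 and -0.01 for all genes. Of the mitosis genes, 8 of 22 (36.4%) were higher and 1 was lower against Tumor-AM, and 9 (40.9%) were higher and 2 were lower against Ctrl-AM, with medians of 0.35 and 0.46. In either direction 40.9% and 50% of them were called, below the 48.6% and 54.8% of all genes. With values rescaled to the same sum in every sample (TPM), the counts higher and lower were 6 and 1 for replication genes and 6 and 2 for mitosis genes against Tumor-AM, and 8 and 0 and 5 and 2 against Ctrl-AM. Over all 10686 genes, TPM gave 2135 higher and 3120 lower against Tumor-AM, and 2133 and 4412 against Ctrl-AM. Quantile normalization gave 7 higher and 2 lower mitosis genes against Tumor-AM, where 5235 of all genes were called in either direction. The calls lost with TPM were those of Mki67, Cdk1, Ccna2 and Prc1 against Ctrl-AM and of Mcm2, Kif11 and Stmn1 against Tumor-AM, and those gained were E2f1 and Kif23, both lower than in Tumor-AM.

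The subunits of the Mcm2-7 helicase, the ring of 6 that unwinds DNA at replication origins, differed unevenly. Mcm6 had FPKM of 21.6, 25.4 and 26.3 (Ctrl-AM), 26.7, 36.9 and 27.8 (Tumor-AM) and 54.9, 68.1 and 48.3 (Tumor-macrophage). All Tumor-macrophage samples lay above all AM samples. The log2 change was 1.18 ± 0.15 against Ctrl-AM (adjusted p = 6.14e-05) and 0.88 ± 0.15 against Tumor-AM (adjusted p = 0.000589).

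For Mcm5 the values were 10.8, 11.4 and 15.2 (Ctrl-AM), 11.8, 17.5 and 12.0 (Tumor-AM) and 26.1, 33.7 and 23.1 (Tumor-macrophage). Tumor-macrophage again lay above both, by 1.09 ± 0.18 and 0.96 ± 0.18 on the log2 scale. Mcm3 was between 22.7 and 26.0 in Ctrl-AM, between 24.8 and 32.6 in Tumor-AM and between 37.6 and 51.3 in Tumor-macrophage (log2 change against Ctrl-AM 0.81 ± 0.13).

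Mcm2 had FPKM of 9.44, 9.38 and 10.6 (Ctrl-AM), 10.8, 15.5 and 11.2 (Tumor-AM) and 15.4, 22.1 and 14.8 (Tumor-macrophage). Against Ctrl-AM it was higher by 0.75 ± 0.17 (adjusted p = 0.00308). Against Tumor-AM the groups overlapped and the call (0.45 ± 0.17, adjusted p = 0.0482) was kept in 7 of 18 alternative settings.

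Mcm4 and Mcm7, which complete the ring, were not called in either comparison. Mcm4 was between 13.5 and 17.5 in Ctrl-AM and between 18.2 and 20.4 in Tumor-macrophage, with a 95% interval of the log2 change from -0.06 to 0.60, beside 0.85 to 1.51 for Mcm6. Mcm7 was between 21.7 and 27.8 in Ctrl-AM and at 25.6, 39.1 and 23.8 in Tumor-macrophage, so that only sample 2 stood apart, and its interval ran from -0.14 to 0.60. A difference between subunits was not tested. Mcm7 shares 13.2% of its 75-base windows with transcripts of other genes, so its value is less certain.

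Of the factors that load and start the helicase, Cdt1 and cyclin E1 differed and Cdc6 and Gins2 were not called. Cdt1 had 9.81, 10.6 and 10.8 (Ctrl-AM), 9.76, 12.9 and 9.75 (Tumor-AM) and 17.1, 21.0 and 14.8 (Tumor-macrophage). It was higher by 0.69 ± 0.14 against Ctrl-AM and by 0.66 ± 0.14 against Tumor-AM, with no overlap in either. Ccne1 (cyclin E1, which drives entry into S phase) had 4.52, 3.92 and 5.14 (Ctrl-AM), 4.40, 5.38 and 5.09 (Tumor-AM) and 7.45, 10.9 and 6.74 (Tumor-macrophage), a log2 change of 0.74 ± 0.17 against Ctrl-AM (adjusted p = 0.00316). For Ccne2 the changes were 0.16 and -0.09. Gins2, a subunit of the helicase's GINS partner, shares 64.7% of its windows with Gse1 on the other strand, and was not called.

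Of the nucleotide enzymes, Tk1 (thymidine kinase, a salvage enzyme of S phase) showed the largest change. Its FPKM were 12.8, 16.3 and 13.9 (Ctrl-AM), 12.4, 15.5 and 15.2 (Tumor-AM) and 25.0, 38.7 and 23.9 (Tumor-macrophage). Both log2 changes were 0.95 (SE 0.17), with all Tumor-macrophage samples above all AMs. Rrm1 reached 21.6, 30.4 and 19.0 in Tumor-macrophage and was higher than in Ctrl-AM by 0.73 ± 0.18 (adjusted p = 0.00516), and was not called against Tumor-AM. Its partner Rrm2 and Tyms (thymidylate synthase) were not called, with log2 changes of 0.26 and 0.24 against Ctrl-AM.

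Pcna and E2f1 were not called. Pcna had 135, 135 and 142 (Ctrl-AM), 126, 160 and 141 (Tumor-AM) and 122, 151 and 139 (Tumor-macrophage). The 3 groups overlapped and the 95% interval of the change of Tumor-macrophage against Ctrl-AM was -0.23 to 0.22. Pcna shares 13.8% of its windows with a pseudogene. E2f1, an activator of the replication genes, gave -0.25 ± 0.11 against Tumor-AM (adjusted p = 0.0934) and -0.04 ± 0.11 against Ctrl-AM.

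Among mitosis genes, the largest difference from Ctrl-AM was that of Top2a, which untangles replicated chromosomes. Its FPKM were 6.27, 6.04 and 6.34 (Ctrl-AM), 8.04, 6.10 and 7.46 (Tumor-AM) and 14.4, 14.9 and 13.7 (Tumor-macrophage). The Tumor-macrophage samples lay close together and far above the AMs. The log2 change was 1.09 ± 0.11 against Ctrl-AM (adjusted p = 9.38e-06) and 0.91 ± 0.11 against Tumor-AM (adjusted p = 4.46e-05).

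Mki67, the common marker of cycling cells, differed less. In Tumor-macrophage its FPKM were 2.99, 2.94 and 3.02, above every AM sample. The log2 change was 0.31 ± 0.12 against Ctrl-AM (adjusted p = 0.0439), a call kept in 5 of 18 alternative settings, and 0.27 ± 0.12 against Tumor-AM (adjusted p = 0.0822), which missed the threshold. On rescaling to TPM its adjusted p against Ctrl-AM was 0.316.

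Of the cyclin and kinase genes of mitosis, Cdk1 had 8.66, 7.77 and 8.10 (Ctrl-AM), 6.16, 7.13 and 9.22 (Tumor-AM) and 10.3, 16.9 and 13.9 (Tumor-macrophage). It was higher by 0.65 ± 0.18 and 0.78 ± 0.18 against Ctrl-AM and Tumor-AM. Ccna2 (cyclin A2) reached 11.4, 22.3 and 16.7 in Tumor-macrophage, beside 10.5, 8.74 and 11.9 in Ctrl-AM, and was called against Ctrl-AM (0.61 ± 0.20, adjusted p = 0.0238) although the groups overlapped. Ccnb1 and Ccnb2 (B-type cyclins, the partners of Cdk1) were not called. Ccnb1 gave 11.3, 23.9 and 13.5 in Tumor-macrophage, a log2 change of 0.55 ± 0.24 against Ctrl-AM, and Ccnb2 gave 12.5, 22.6 and 17.7, a change of 0.11 ± 0.19.

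The aurora kinases build and correct the spindle. Aurka had 4.63, 6.50 and 7.39 (Ctrl-AM), 6.00, 4.11 and 5.97 (Tumor-AM) and 11.2, 12.6 and 10.7 (Tumor-macrophage), all above the AMs, with log2 changes of 0.82 ± 0.17 and 0.99 ± 0.17 against Ctrl-AM and Tumor-AM. Aurkb had 11.4, 10.2 and 12.2 (Ctrl-AM), 7.81, 8.80 and 12.1 (Tumor-AM) and 13.8, 19.8 and 13.5 (Tumor-macrophage). It was called against Tumor-AM (0.66 ± 0.17) and missed the threshold against Ctrl-AM (adjusted p = 0.061). Birc5 (survivin, the partner of aurora B) had 16.6, 20.5 and 25.3 (Ctrl-AM), 22.9, 20.2 and 27.0 (Tumor-AM) and 30.5, 55.5 and 37.5 (Tumor-macrophage), with changes of 0.93 ± 0.21 and 0.76 ± 0.21. For Ube2c, the ubiquitin-conjugating enzyme of the anaphase-promoting complex, the values were 14.4, 18.1 and 19.7, then 18.8, 17.4 and 21.9, then 24.3, 49.5 and 36.3 in Ctrl-AM, Tumor-AM and Tumor-macrophage. It was higher by 0.99 ± 0.22 against Ctrl-AM and by 0.84 ± 0.22 against Tumor-AM.

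Of the spindle motors and midzone proteins, Kif11, Cenpe, Prc1 and the microtubule regulator Stmn1 were each called in 1 comparison. Kif11 (the motor that separates spindle poles) had 3.43, 4.91 and 3.06 in Tumor-macrophage beside 1.56, 2.33 and 2.39 in Tumor-AM and 1.54, 2.66 and 3.14 in Ctrl-AM, and was called against Tumor-AM (0.63 ± 0.21, adjusted p = 0.032). Cenpe rose from 0.524, 0.891 and 0.976 in Ctrl-AM to 1.45, 2.06 and 1.81 in Tumor-macrophage (0.63 ± 0.14, adjusted p = 0.00373), with 1.27, 1.06 and 1.23 in Tumor-AM. The midzone protein Prc1 had 5.66, 6.17 and 9.44 (Ctrl-AM), 8.79, 7.80 and 9.63 (Tumor-AM) and 9.35, 15.9 and 10.0 (Tumor-macrophage), overlapping Ctrl-AM, with a change of 0.65 ± 0.21. Stmn1 had 119, 129 and 143 (Ctrl-AM), 129, 118 and 126 (Tumor-AM) and 139, 188 and 146 (Tumor-macrophage). It was called against Tumor-AM (0.33 ± 0.11, adjusted p = 0.0348), a call kept in 10 of 18 alternative settings. Among others, the call was lost without Tumor-AM 1, Tumor-AM 2 or Tumor-AM 3.

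The mitosis genes that were lower in Tumor-macrophage were Bub1b and Kif23. Bub1b (BubR1, which holds the spindle checkpoint) had 14.2, 13.7 and 13.7 (Ctrl-AM), 17.6, 17.2 and 15.8 (Tumor-AM) and 11.2, 11.6 and 7.94 (Tumor-macrophage). Tumor-macrophage lay below both, with log2 changes of -0.42 ± 0.13 against Ctrl-AM (adjusted p = 0.0185, or 0.0542 without Ctrl-AM 1) and -0.68 ± 0.13 against Tumor-AM (adjusted p = 0.00125). Kif23 (a kinesin of cytokinesis) had 7.97, 9.42 and 11.5 (Ctrl-AM), 8.28, 8.15 and 7.03 (Tumor-AM) and 4.66, 7.12 and 5.18 (Tumor-macrophage). It was lower than in Ctrl-AM, with a log2 change of -0.68 ± 0.16 (adjusted p = 0.00454), and gave -0.42 ± 0.16 against Tumor-AM (adjusted p = 0.0525).

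The remaining mitosis genes, Bub1, Plk1, Cdc20, Kif20a, Tpx2 and Nusap1, were not called in any comparison. Plk1 had 2.97, 9.43 and 4.86 in Tumor-macrophage, beside 2.65, 2.79 and 3.22 in Ctrl-AM, and its log2 change of 0.68 ± 0.28 against Ctrl-AM gave an adjusted p of 0.0616. Those of the other 5 against Ctrl-AM were between 0.17 and 0.34. Transcripts of Ccnb1, Stmn1 and Kif20a share 18.9%, 15.4% and 23.3% of their 75-base windows with other genes, those of Ccna2 and Ube2c 10.8% and 10.1%, and the counting of such reads was not stated.

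One library weighed on these results. Tumor-macrophage 2 was the highest of its group for 16 of 17 replication genes and for 21 of 22 mitosis genes, beside 34.7% of all genes. The exceptions were Ccne2 and Mki67. Its mean log2 level was above that of the other samples of its group by 0.43 for replication genes and by 0.49 for mitosis genes, while for all genes the difference was -0.01. Without it, 6 replication genes were higher and 1 was lower against Tumor-AM, with Mcm2 lost and E2f1 gained as lower, and 8 were higher against Ctrl-AM. Of the 22 mitosis genes, 6 were higher and 3 were lower against Tumor-AM (Kif11 and Stmn1 lost, Ccnb2 and Kif23 gained as lower). Against Ctrl-AM, 6 of 22 were higher and 2 were lower (Ccna2, Mki67 and Prc1 lost). With every sample in, 24.2% of all genes were higher against Tumor-AM and 27.7% against Ctrl-AM. Without this library, 4953 of all 10686 genes were called in either direction against Tumor-AM and 5634 against Ctrl-AM. Ccna2 and Prc1 were also lost against Ctrl-AM without Ctrl-AM 1 or Ctrl-AM 2, and Kif11 against Tumor-AM without Tumor-AM 1 or Tumor-macrophage 1. Calls of mitosis genes in either direction rose to 14 against Tumor-AM without Tumor-macrophage 1, and fell to 7 against Ctrl-AM without Ctrl-AM 1. In the same fits 4867 and 5214 of all genes were called.

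**Figure D4:**
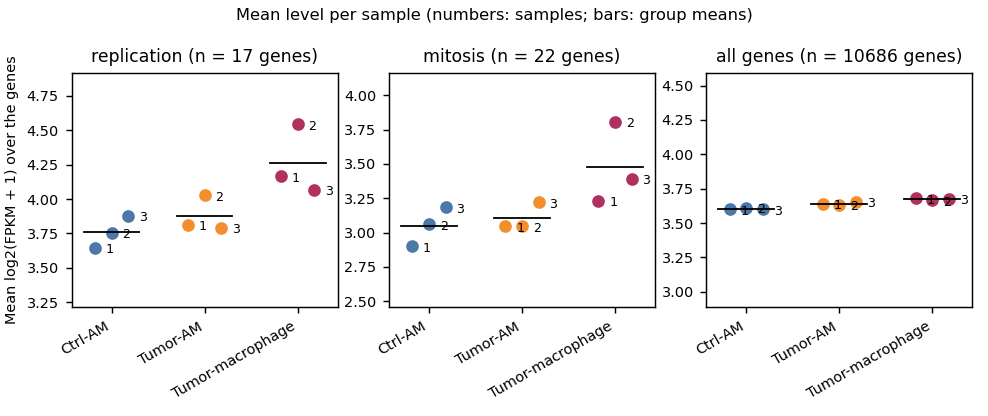
Mean log2(FPKM + 1) (y axis) over the 17 replication genes, the 22 mitosis genes and all 10686 genes tested in each sample (points, numbered by sample) of the 3 groups (x axis), with bars at group means and the same span on each y axis. Tumor-macrophage 2 stands at 4.54 and 3.81 in the first 2 panels, above the other samples, and at 3.67 among all genes, close to its group.

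Markers of other cells moved with the same comparison. Of the B cell markers, Cd79a was between 10.9 and 22.1 FPKM in Tumor-macrophage, between 5.67 and 9.12 in Ctrl-AM and between 1.57 and 3.59 in Tumor-AM. Cd79b was between 14.7 and 22.9, between 2.55 and 4.18 and between 0.564 and 2.01, and Ms4a1 between 3.12 and 6.67, between 1.41 and 1.93 and between 0.671 and 0.935. The T and NK cell markers, of which 7 were in the files, summed to between 15.9 and 35.9 FPKM in Tumor-macrophage, between 5.43 and 7.37 in Ctrl-AM and between 4.04 and 10.9 in Tumor-AM, and the dendritic cell list of 6 gave 24.6 to 54.2, 13.8 to 16.8 and 6.56 to 13.7. Of the T, NK and dendritic cell markers, only Cd4, Ncr1 and Siglech were at 0 in some samples, and Cd3e and Xcr1 were not at 0 in any. Their part in the result was not tested. Tumor-macrophage 2, the sample with the highest levels of the cell cycle genes, had the lowest value of its group for Cd79a, Cd79b, Ms4a1 and both of these sums. It also had the lowest sum of tumor macrophage markers (23216, beside 35750 and 32069), the highest sum of AM markers (490, beside 182 and 213) and the highest sum of epithelial markers (70.5, beside 19.9 and 20.5). The neutrophil markers, of which 5 were in the files, were between 59.1 and 94.6 in Tumor-macrophage and between 89.7 and 153 in AMs, and the 6 epithelial markers between 19.9 and 70.5 and between 54.7 and 218. The fibroblast and mesenchymal list of 7 was between 4.07 and 5.71 in Tumor-macrophage and between 3.00 and 7.71 in AMs other than Tumor-AM 3, which had 27.9. No tdTomato symbol was among those measured, so its transcript could not be analysed, and carry-over of LLC cells was not tested.

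Upstream of the members, the D-type cyclins changed. Of 9 G1 cyclins and kinases, 2 (22.2%) stood below Ctrl-AM in Tumor-AM and none above it, beside 3.18% and 7.11% of all genes. Against each AM population, 2 (22.2%) were higher and 5 (55.6%) were lower in Tumor-macrophage, beside 24.2% and 24.4% of all genes against Tumor-AM and 27.7% and 27.1% against Ctrl-AM. Ccnd2 (cyclin D2) had 89.3, 77.0 and 79.6 FPKM (Ctrl-AM), 40.9, 47.8 and 39.2 (Tumor-AM) and 4.86, 7.45 and 5.15 (Tumor-macrophage). The 3 groups were apart from each other. The log2 change was -0.93 ± 0.14 in Tumor-AM against Ctrl-AM (adjusted p = 0.00288) and -2.69 ± 0.14 in Tumor-macrophage against Tumor-AM (adjusted p = 8.12e-08).

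Ccnd1 (cyclin D1) ran the other way. It was between 0.119 and 0.667 in the 6 AM samples and 10.9, 12.6 and 10.9 in Tumor-macrophage, a log2 change of 3.06 ± 0.14 against Tumor-AM. Tumor-AM did not differ from Ctrl-AM beyond the spread (0.20 ± 0.14). Ccnd1 passed the filter only through the Tumor-macrophage samples, where it was high. Its call, counted above among those higher, is therefore no separate support. Ccnd1 shares 20.6% of its windows with another gene. Ccnd3 (cyclin D3) was between 48.0 and 67.5 in AMs and between 23.4 and 27.5 in Tumor-macrophage, lower with a log2 change of -1.24 ± 0.11 against Tumor-AM.

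The kinases of D-type cyclins also parted. Cdk6 fell from 23.3, 19.0 and 19.7 in Ctrl-AM to 10.0, 11.1 and 13.7 in Tumor-AM (-0.78 ± 0.17, adjusted p = 0.0192), a call kept in 13 of 18 alternative settings and lost without Ctrl-AM 1, Ctrl-AM 3, Tumor-AM 1 or Tumor-AM 2, and had 5.88, 10.1 and 7.44 in Tumor-macrophage. Cdk4 ranged from 52.3 to 56.8 in Ctrl-AM and from 64.9 to 65.7 in Tumor-AM, and reached 93.9, 120 and 92.0 in Tumor-macrophage (0.87 ± 0.10 against Ctrl-AM, adjusted p = 2.38e-05). Cdk4 missed the threshold in Tumor-AM against Ctrl-AM (adjusted p = 0.138). Cdk2, the partner of cyclin E, was between 13.7 and 15.7 in Tumor-macrophage and between 18.1 and 22.7 in AMs, lower with a log2 change of -0.54 ± 0.08 against Tumor-AM.

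**Figure D5:**
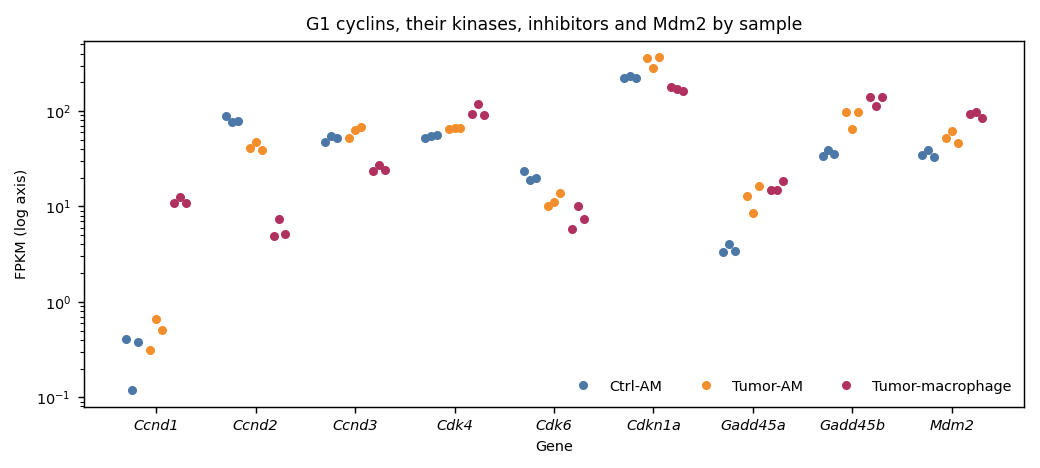
FPKM (log y axis) of D-type cyclins, their kinases, inhibitors and Mdm2 (x axis) in the 3 samples of Ctrl-AM (blue), Tumor-AM (orange) and Tumor-macrophage (red). Ccnd2 steps down and Gadd45a, Gadd45b and Mdm2 step up from Ctrl-AM to Tumor-AM, and Ccnd1 is highest in Tumor-macrophage.

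Several inhibitors of the cycle differed between the AM populations. Of 15 inhibitors tested, 4 (26.7%) stood above Ctrl-AM in Tumor-AM and none below it, beside the 7.11% and 3.18% of all genes. The tumor macrophage markers were higher in the same samples, as given above, and their part in these changes and in those of Ccnd2, Cdk6, Mdm2, Klf2 and Klf4 was not tested. Gadd45a, a growth arrest and DNA damage gene, had 3.37, 4.07 and 3.44 (Ctrl-AM) and 13.0, 8.48 and 16.4 (Tumor-AM) (1.52 ± 0.20, adjusted p = 0.00134). Its relative Gadd45b had 33.5, 39.2 and 35.6 (Ctrl-AM) and 97.8, 65.3 and 97.9 (Tumor-AM) (1.22 ± 0.15, adjusted p = 0.00109). Cdkn1a (p21, the inhibitor of cyclin-dependent kinases) rose from 221, 236 and 224 to 362, 282 and 366 (0.56 ± 0.10, adjusted p = 0.00609), and Btg1, an antiproliferative factor, by 0.49 ± 0.09. Groups did not overlap for any of the 4, which is no separate support, since these genes were named because they were called.

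In Tumor-macrophage inhibitors moved both ways, with 5 (33.3%) higher and 6 (40%) lower than in Tumor-AM, beside 24.2% and 24.4% of all genes, and 6 (40%) and 6 (40%) against Ctrl-AM, beside 27.7% and 27.1%. Cdkn1a was lower, at 181, 172 and 164 (-0.95 ± 0.10 against Tumor-AM), below the Ctrl-AM samples too. Gadd45b was higher still, at 139, 114 and 140, and Cdkn2c (p18) was higher by 1.11 ± 0.21 against Tumor-AM. Tob1, an antiproliferative gene, was lower with a log2 change of -2.20 ± 0.10 and so was Gadd45g, with -1.33 ± 0.12. Cdkn1b (p27) was not called in any of the 3 comparisons. In Tumor-macrophage it stayed uncalled in 13 of 18 alternative settings against Ctrl-AM and in 16 against Tumor-AM. In the others it was called lower, such as with TPM against Ctrl-AM (-0.69, limma adjusted p = 0.0149).

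Of 13 E2F and DREAM factors tested, 1 (Lin54, 7.69%) stood above Ctrl-AM in Tumor-AM, beside 7.11% of all genes, a call kept in 10 of 18 alternative settings. In Tumor-macrophage, 5 (38.5%) were higher and 1 (7.69%) was lower against Tumor-AM, beside 24.2% and 24.4% of all genes, and 7 (53.8%) and 1 (7.69%) against Ctrl-AM, beside 27.7% and 27.1%. The highest changes were those of E2f5 (1.07 ± 0.17 against Tumor-AM), Mybl2 (B-Myb, 0.73 ± 0.19) and Foxm1 (0.63 ± 0.18), the last 2 being the activators of mitosis genes. Mybl2 had 2.75, 4.08 and 2.2 FPKM in Tumor-macrophage and between 1.04 and 1.8 in AMs. Foxm1 had 2.64, 4.38 and 2.83, above all AMs, which had between 1.32 and 2.16, and its call against Tumor-AM was lost without Tumor-macrophage 2 (adjusted p = 0.0526) or Tumor-AM 2 (0.0577).

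Further genes of the same 2 stages were counted in the same way. Of 41 other replication genes tested, 2 (4.88%, beside 7.11% of all genes) stood above Ctrl-AM in Tumor-AM, Dnmt1 and Rfc2, with calls kept in 7 and 8 of 18 alternative settings. Against Ctrl-AM, 15 (36.6%) were higher and 1 (2.44%) was lower in Tumor-macrophage, beside 27.7% and 27.1% of all genes. Against Tumor-AM, 9 (22%) were higher and 1 (2.44%) was lower, beside 24.2% and 24.4%, so that the share higher was below that of all genes. Lig1 (the ligase of Okazaki fragments, 1.16 ± 0.18 against Ctrl-AM), Rfc5 (a clamp loader subunit, 1.13 ± 0.12), Rfc2 (its partner, 1.09 ± 0.07) and Uhrf1 (which guides maintenance methylation, 0.94 ± 0.16) rose, and Rpa3, the small subunit of the single-strand binding protein, was lower (-0.79 ± 0.13).

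Of 41 other mitosis genes tested, Tumor-macrophage had 23 (56.1%) higher and 3 (7.32%) lower against Ctrl-AM, beside 27.7% and 27.1% of all genes, and 20 (48.8%) and 2 (4.88%) against Tumor-AM, beside 24.2% and 24.4%. Espl1 (separase, 1.59 ± 0.19 against Ctrl-AM), Cenpa (the centromeric histone, 1.14 ± 0.12), Ncaph (a condensin subunit, 1.00 ± 0.13) and Cdca8 (borealin, 1.00 ± 0.19) were higher. Lower were Cks2 (a subunit of cyclin-dependent kinases, -1.28 ± 0.14), Anln (anillin, -1.18 ± 0.17) and Pttg1 (securin, -0.36 ± 0.08). Cks2 shares 26.9% of its windows with other genes. In Tumor-AM against Ctrl-AM the 1 gene called was Espl1 (0.70 ± 0.19, adjusted p = 0.0418), at 0.875, 0.778 and 1.06 FPKM (Ctrl-AM) and 3.10, 1.44 and 1.95 (Tumor-AM), a call kept in 8 of 18 alternative settings.

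Of 12 checkpoint and damage response genes tested, 1 (8.33%) stood above Ctrl-AM in Tumor-AM, beside 7.11% of all genes. It was Mdm2, the ligase that degrades p53, at 35.0, 39.6 and 32.9 (Ctrl-AM) and 52.8, 62.4 and 45.9 (Tumor-AM) (0.56 ± 0.12, adjusted p = 0.0134). Without Ctrl-AM 1 or Ctrl-AM 3 its adjusted p was 0.0559 and 0.0624. It was higher again in Tumor-macrophage, at 92.2, 98.6 and 84.6. Wee1, which restrains Cdk1, was higher in Tumor-macrophage than in Tumor-AM (1.35 ± 0.21), and the phosphatases that activate cyclin-dependent kinases were lower for Cdc25b (-1.53 ± 0.10) and Cdc25a (-0.67 ± 0.15) and higher for Cdc25c (0.64 ± 0.20, lost without Tumor-AM 2, Tumor-AM 3, Tumor-macrophage 2 or Tumor-macrophage 3). Cdc25c did not pass the alternative filter of at least 6 samples.

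Regulators linked to the self-renewal of macrophages were listed too. Maf (c-Maf) was at or below 0.163 in AMs and between 5.47 and 6.62 in Tumor-macrophage, and passed the filter only through the latter. The Krüppel-like factors Klf2 and Klf4 were higher in Tumor-AM by 0.60 ± 0.15 and 0.35 ± 0.08, calls kept in 10 and 12 of 18 alternative settings. Myc was not called in any comparison, with values between 5.92 and 10.4 in the 9 samples.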

How the data were processed

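Gene expression was given as FPKM for each of 9 samples. According to the methods and the labels, cDNA was made with the SMART-Seq HT kit, and the authors sequenced single-end reads of 75 bases, mapped them to mm10 with TopHat2 2.1.1 and Bowtie2, and deposited FPKM computed with the Cufflinks suite (Cuffdiff 2.2.1 in the submitters' processing notes). The annotation, strand use and handling of shared reads are not given in the sources used here. FPKM does not correct for a few abundant RNAs. The sum per sample differed by group without overlap. It ran from 635560 to 660730 in Ctrl-AM, from 694977 to 731731 in Tumor-AM and from 743858 to 785745 in Tumor-macrophage.

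FPKM are not counts. Genes with FPKM of 1 or more in 3 or more samples (10686 genes) were compared as log2(FPKM + 1), a scale that understates changes of low genes, with limma 3.58.1 in R 4.3.3 (intensity trend, all 9 samples sharing 1 spread, two-sided, Benjamini-Hochberg over all genes tested, threshold 0.05). The fit was tested on simulated data. ± is the standard error of a log2 change and intervals are 95%. Exact permutation of 3 against 3 samples cannot go below 0.1.

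The members and gene lists were chosen with earlier results of these data known. Members called in any comparison, and Mki67, Top2a, Pcna and Cdk1, are given in every sample or by their range. From each other list, up to 4 genes called in each direction, with the largest change and a mean of 2 FPKM or more in the higher group, could be named, besides fixed regulators. Some genes and marker lists are not reported here. Depth was estimated from the smallest steps of low values of single-transcript genes of GENCODE vM21 (23310 symbols, 95.7%, matched), and covers counting error only, since PCR copies are not independent. Windows of 75 bases shared between genes were counted on its transcripts. Besides the shares given above, they were 17.1% for Mybl2, 15.7% for Cdk4 and 13.9% for Gadd45a. For Rfc2, Ccne2 and Cdc25c they were 13.9%, 12.8% and 10.7%. RefSeq promoters were matched by symbol. Python 3.11.15 with numpy 2.4.6 and matplotlib 3.10.9 was used.

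Alternatives were a pseudocount of 0.1, no filter, a filter of at least 6 samples, rescaling to TPM, median-ratio scaling, quantile normalization, a constant prior variance, the 2 compared groups alone, a block on the replicate number, and each of the 9 samples left out in turn.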

Additional observations from a re-analysis of the deposited data

How the results depend on the processing

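Under 18 alternative settings no called value changed direction. Calls of mitosis genes in Tumor-macrophage against Ctrl-AM, 11 as reported, were 7 with TPM and between 7 and 14 with 1 sample left out. Against Tumor-AM, 9 as reported, they were between 7 and 14 with 1 sample left out. The causes were not tested. Replication calls stayed between 6 and 9 in both comparisons. Over all genes, Tumor-AM against Ctrl-AM gave 1100 calls, and between 538 and 1254 with 1 sample left out. TPM moved the median log2 change of all genes to -0.10, -0.08 and -0.21 in Tumor-AM against Ctrl-AM, Tumor-macrophage against Tumor-AM and Tumor-macrophage against Ctrl-AM, and that of the replication and mitosis genes to -0.00 and -0.05, to 0.23 and 0.27, and to 0.15 and 0.26. It also moved the split of all calls, to 468 higher and 837 lower (760 and 340 as reported), 2135 and 3120 (2588 and 2603), and 2133 and 4412 (2960 and 2900). Quantile normalization gave 607 and 446 in the first comparison. Each value of a single gene, in each comparison and setting, was also set beside the reported fit. In 8941 cases the outcome was the same, which includes values called in neither fit. In 336 cases a call was lost, and in 134 a call was gained.

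With the replicate block, calls of replication genes were 0, 7 and 8 and of mitosis genes 0, 9 and 13 in the same order of comparisons, with Cdc20, Kif11 and Plk1 gained and Mki67 lost in the last, and 938, 5069 and 5772 over all genes. Only Tumor-AM and Tumor-macrophage samples could share a mouse. Between these populations, deviations of samples with the same number correlated at 0.026, 0.0964 and 0.109. Those with different numbers correlated between -0.101 and 0.00617. Over all pairs of populations the same-number values ran from -0.0615 to 0.159. The labels state no pairing, so the reported test did not pair samples. Whether same-number samples shared a mouse was not tested. Depth limits the lowest genes most, such as Ccne2, Cenpe and Cenpf.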

Other observations

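Within the AM populations, samples of 1 group differed together across the cell cycle genes. In Ctrl-AM, sample 3 was the highest of its group for 14 of 17 replication genes and 18 of 22 mitosis genes, and sample 1 was the lowest for 12 and 15, beside 32.2% and 35.4% of all genes. Tumor-AM 2 was the highest for 13 of 17 replication genes and for 2 of 22 mitosis genes, while Tumor-AM 3 was the highest for 1 and 14. In Tumor-macrophage 2 both sets stood high together, and so did further genes of the same stages, of which it was the highest for 32 of 41 replication genes and 36 of 41 mitosis genes. These values were noticed after the data were seen and were not tested.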
